A study of Homo sapiens with 8 samples.

Results

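Cyclins, the cyclin-dependent kinases (CDKs) they switch on, the CDK inhibitors that restrain them and the E2F factors with their pocket protein partners were followed as 1 module of 41 genes. The members were taken by gene symbol, each matched to 1 Ensembl identifier through GENCODE, out of 60668 genes in the count files. With them were counted the 3 CDC25 phosphatases, which activate CDKs, and SKP2, which marks CDK inhibitors for destruction. The choice was by name and not by a measured value, though with earlier results of these data known. Of the 41 members, 38 passed the filter on low counts (more than 1 CPM, that is, counts scaled to a common library size, in at least 4 of the 8 libraries) among the 15222 genes tested, and CCNA1, CCND1 and CDKN1C did not.

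The RNA came from D283-OMO, the D283 Med medulloblastoma cell line carrying a lentiviral FLAG-tagged OMOMYC transgene that doxycycline (DOX) switches on. OMOMYC is a dominant-negative mini-protein made from MYC that occupies E-boxes, the CACGTG sites of MYC. Both groups carried the transgene and were selected with hygromycin: 4 untreated libraries (OMO) and 4 libraries of cells given DOX for 72 h (OMO+DOX), described as independent biological replicates. Whether the transduced cells were a clone or a pool is not given in the sources used here. No DOX-treated library of cells without the transgene was analysed here, so the effect of DOX itself and that of OMOMYC cannot be told apart.

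In a dividing cell, D-type cyclins with CDK4 or CDK6, and then E-type cyclins with CDK2, phosphorylate RB1 and its relatives RBL1 and RBL2. The phosphorylated pocket proteins let go of the E2F factors, and the activator E2Fs then drive genes for DNA synthesis, among them their own. Cyclin A carries the cell through S phase, and the B-type cyclins with CDK1 take it into mitosis once CDC25 phosphatases have removed the inhibitory phosphates. INK4 proteins hold back CDK4 and CDK6, and CIP/KIP proteins hold back CDK2 in the main. MYC is known to promote several of these steps and, together with MIZ1, to repress some inhibitors.

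Libraries held between 38390696 and 54020506 counts, and 3 counts, taken as the limit of detection, were worth at most 0.0746 CPM. CAD and NCL, known targets of MYC that served the study as checks, were both called lower, with log2FC values of −0.48 and −0.44. Of all genes tested 38.1% were called lower, and the lower quartile of their log2FC was −0.43. MYC RNA stood at 937 ± 75.5 CPM in OMO and 1120 ± 56.6 CPM in OMO+DOX (SD, n = 4), and reads of the transgene cannot be told apart from its own. In an immunoblot the paper reported a strong fall of MYC protein after DOX, and protein is not measured here. Of 8 markers of Group 3 medulloblastoma 7 were above 1 CPM in both groups, and their summed level went from 3301 to 3376 CPM in OMO down to 1774 to 1916 CPM in OMO+DOX. Both sums include MYC, with any reads of the transgene. OTX2 fell from 1046 to 509 CPM. NEUROD1, CRX, IMPG2, NPR3 and GABRA5 fell with log2FC values of −2.23, −2.59, −3.01, −2.57 and −1.75. EOMES, not tested, went from 0.263 to 0.775 CPM. In the 5 lists that follow, of other tumour groups and cell types, the summed level was higher in OMO+DOX, in each through a few genes. Of 6 SHH medulloblastoma markers, PDLIM3 rose from 14.2 to 117 CPM and SFRP1 from 0.254 to 2.0 CPM, whereas GLI1 fell from 14.9 to 4.98 CPM and GLI2 from 33.6 to 19.3 CPM, and the sum of the list went from 63.1 to 65.8 CPM up to 141 to 146 CPM. The sum of 6 WNT markers, nearly all AXIN2, went from 17.9 to 19.6 up to 29.1 to 30.7 CPM, and WIF1, not tested, from 0 in every OMO library to 0.702 to 1.22 CPM. Of 6 fibroblast markers, with sums of 35.0 to 37.5 and 55.6 to 68.9 CPM, PDGFRB rose from 13.5 to 40.3 CPM, COL1A1 was not called at a log2FC of 0.09, and COL1A2, COL3A1, DCN and LUM stayed under 1 CPM in every library. Of 5 endothelial markers, with sums of 3.57 to 4.46 and 5.47 to 6.3 CPM, CDH5 rose from 0 to 1.85 CPM and KDR from 0.347 to 2.74 CPM, VWF fell with a log2FC of −1.39, and PECAM1 and CLDN5 stayed under 1 CPM. Of 6 immune markers, with sums of 0.568 to 0.734 and 2.44 to 3.21 CPM, LYZ rose from 0.153 to 2.14 CPM and the other 5 stayed under 1 CPM. ATOH1, DKK1, EMX2, PECAM1 and CD3E were at or under 3 counts in all 8 libraries. The part of these shifts in the results was not tested. OMO replicate 3 stood apart among the members, with a median absolute log2 deviation of 0.16 from the mean of its group's other libraries against 0.0533 to 0.107 for the other OMO libraries, and without it all 38 members tested kept their call or lack of one.

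Most of the machinery of the cell cycle was lower after 72 h of DOX. Of the 38 members tested, 29 were called lower (adjusted p below 0.05, edgeR's quasi-likelihood test), against 38.1% of all genes tested, and 5 were called higher, against 38.5%. At a 2-fold change 16 members fell, or 42.1% of those tested, where 9.81% of all genes did, and 3 rose, or 7.89%, where 11.0% did. With an adjusted p below 0.001 and an absolute log2FC above 2, 1 member fell (E2F2) and 1 rose (CDKN2B), against 2.75% and 4.38% of all genes. CDKN2B was under 1 CPM in every OMO library and passed the filter through its OMO+DOX libraries, so a difference was partly built into its call, here and among the 3 that rose. In 27 members every OMO+DOX library lay below every OMO library and in 5 every one lay above, against 35.4% and 36.3% of all genes, and 6 members overlapped. The median log2FC of the 38 was −0.66, beside 0.01 over all genes tested, and the value after ± beside a log2FC is its standard error throughout. In libraries of bulk RNA, fewer cells in a phase of the cycle and less RNA per cell cannot be told apart.

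The 16 that fell by over 2-fold were the cyclins CCNA2, CCNB1, CCNB2, CCNE2, CCNF and CCNG2, the kinase CDK1, the phosphatases CDC25A, CDC25B and CDC25C, the inhibitors CDKN2C and CDKN3, and the factors E2F1, E2F2, E2F7 and E2F8. The 3 that rose by over 2-fold, CDKN1A, CDKN2A and CDKN2B, all encode CDK inhibitors. Scaling by library size alone, in place of TMM, moved the median of all genes up by 0.126 and the share of calls that were higher from 50.3% to 60.2%. Under that scaling CCNE1, CDK5 and E2F6 became called higher, and CDK7, RB1 and SKP2 lost their calls.

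**Figure D1:**
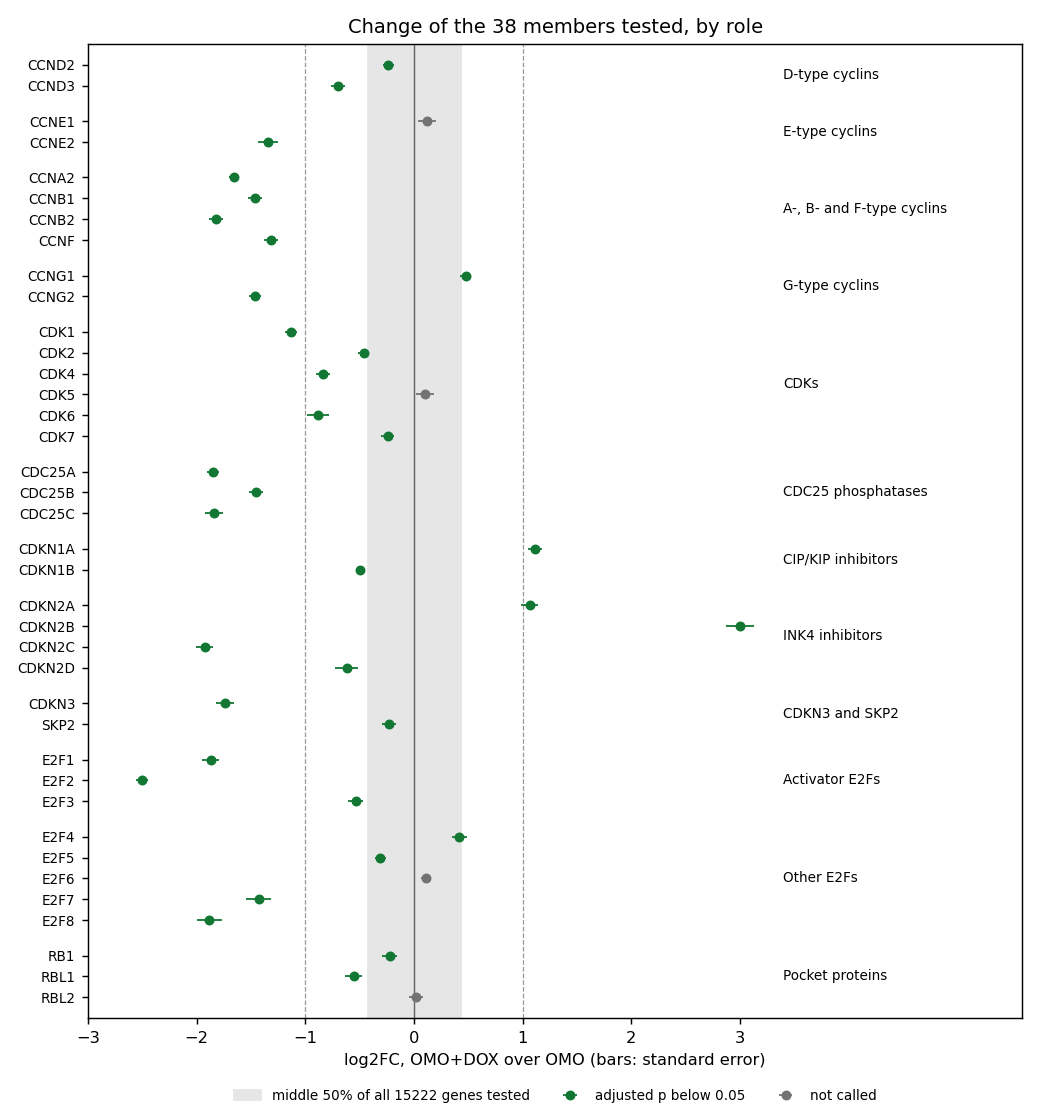
The log2FC of OMO+DOX over OMO is plotted for the 38 members tested, grouped by role, with bars for the standard error (4 libraries a group), dashed lines at a 2-fold change and a grey band for the middle 50% of the 15222 genes tested. E2F2 lies farthest to the left at −2.50 and CDKN2B farthest to the right at 3.0, and the mitotic cyclins, CDC25 phosphatases and E2F1, E2F2, E2F7 and E2F8 all lie left of the line at −1.

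Promoter sequence was set beside these changes. RefSeq windows from 250 bases before to 50 after a transcription start (GRCh38.p14) were listed for 34 of the 41 members, 51 windows in all. CCND1, CCND2, CCNE2, CDK2, CDKN1C, E2F5 and E2F8 had none, and the RB1 window lies at an internal start. Letters read by E2F factors (TTCCCGC or TTCGCGC or TTGCCGC or TTGGCGC, on either strand, where matches may overlap one another) stood in 14 of the 51 windows, or 27.5%, and in 13.0% of all 35116 windows. By gene they stood in 9 of the 14 members with a window that fell by over 2-fold (CCNB1, CDK1, CDKN2C, E2F1, E2F2, E2F7 and the 3 CDC25 genes), in 0 of the 3 that rose by over 2-fold and in 3 of the other 17 (E2F3, E2F6 and RBL1). Counts by gene, here and for the motifs below, have no share over all genes beside them. A gene with several windows counts if any of them matches, so the percentages of windows are not a background for these counts. A match is a description of the letters and not of binding.

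These stretches, shown because they carry the letters shared by members that fell together, hold E2F letters (capitals) upstream of a start of 5 members that fell by over 2-fold and of RBL1, which fell less. Each is 30 bases, 5′ to 3′ on the gene's strand, from RefSeq on GRCh38.p14. In E2F1 the pair begins 33 and 19 bases before the start, in E2F2 the match begins 41 bases before it, and in CDC25A 2 matches on opposite strands overlap, from 43 bases before it. The start used for CDKN2C lies 7961 bases inside the gene as GENCODE draws it.
E2F1 (chr20:33686393-33686422, minus strand): tttcGCGGCAAaaaggatTTGGCGCgtaaa
E2F2 (chr1:23531256-23531285, minus strand): cggcacgacgtTTGGCGCtaaaaaaaaaaa
CDC25A (chr3:48188441-48188470, minus strand): tggattccgtTTGGCGCCAActaggaaagg
CDK1 (chr10:60778292-60778321, plus strand): ctcgcactcagTTGGCGCccgccctcctgc
CDKN2C (chr1:50968661-50968690, plus strand): ggcgcccggccTTCCCGCtcccgcggcgct
RBL1 (chr20:37095999-37096028, minus strand): cagattTTCGCGCgctTTGGCGCaggtggt

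The CHR element (TTTGAA, either strand), read by the MuvB complex in genes of late cell cycle, stood in 9 of the 51 windows, or 17.6%, and in 15.2% of all windows. Of the 14 fallers with a window, 5 had it, namely CCNB2, CCNF, CDK1, CDKN3 and CDC25C, as did E2F3 and RBL2 among the rest. A CCAAT box (CCAAT, either strand) stood in 23 of the 51 windows, or 45.1%, against 34.6% of all windows. By gene it stood in 12 of the 14 fallers, a count without a share over all genes. The E-box CACGTG, which reads the same on both strands, stood in 9 windows, or 17.6%, against 7.26% of all. Its carriers were CCNB1, CCNG2 and CDKN2C among the fallers and CDK4, CDK6, CDK7 and E2F3 among members that moved less, and it was in none of the windows of CDKN1A, CDKN2A and CDKN2B. The CHR of the mitotic cyclins CCNB2 and CCNF and the E-boxes of CDK4 and CCNG2 are shown in capitals, the latter because OMOMYC is known to occupy such letters. The start used for CDK4 lies 3703 bases inside the gene.
CCNB2 (chr15:59105105-59105134, plus strand): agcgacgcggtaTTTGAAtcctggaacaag
CCNF (chr16:2429350-2429379, plus strand): gggccgggtgcgTTTGAAaactggggtggg
CDK4 (chr12:57752499-57752528, minus strand): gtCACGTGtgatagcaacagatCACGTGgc
CDK4, second stretch (chr12:57752394-57752423, minus strand): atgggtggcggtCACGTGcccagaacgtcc
CCNG2 (chr4:77157165-77157194, plus strand): tccgcggggagtCACGTGccccgccccctt

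The D-type cyclins start the relay, and in these cells 1 of them made nearly all of the RNA. Per kilobase of exon CCND2 made 91.7% of the D-type level in OMO and 93.8% in OMO+DOX. CCND2 (ENSG00000118971.8, chr12:4273772-4305350, plus strand) stood at 379.6, 415, 422 and 386 CPM in OMO and 342, 343, 326 and 350.1 CPM in OMO+DOX. The groups did not overlap, and the treated level was 85.0% of the untreated one (log2FC −0.24 ± 0.0485, adjusted p = 0.000893). CCND3 (ENSG00000112576.12, chr6:41934933-42050357, minus strand), expressed about an order of magnitude below CCND2 per kilobase, gave 30.2, 28.3, 30.5 and 27.4 CPM against 18.2, 15.7, 19.2 and 18.5 CPM. It fell further, to 61.4% (log2FC −0.70 ± 0.0666, adjusted p = 1.53e-06), again without overlap. CCND1 (ENSG00000110092.3, chr11:69641087-69654474, plus strand) was near the limit of detection in both groups and was not tested. Its libraries held 2, 5, 5 and 4 counts in OMO and 15, 13, 18 and 19 in OMO+DOX, and a fit without the filter gave a log2FC of 2.02 ± 0.391 (adjusted p = 6.99e-05). That change left CCND1 at 0.141% of the D-type level, and the family total was 83.1% of its OMO value. Part of the exons of CCND2 is shared with the antisense CCND2-AS1 and with AC008012.1, and part of those of CCND1 with LTO1.

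The kinases that D-type cyclins activate fell together. CDK4 (ENSG00000135446.17, chr12:57747727-57756013, minus strand), the main kinase of G1 here with 75.2% of the summed level of CDK2, CDK4 and CDK6 per kilobase in OMO, gave 230.1, 254, 283 and 248 CPM in OMO and 135, 140.0, 145 and 148 CPM in OMO+DOX. No treated library reached the lowest untreated one, and the level was 55.9% of OMO (log2FC −0.84 ± 0.0631, adjusted p = 1.94e-07). Of its exonic bases 1369 are shared with TSPAN31 on the opposite strand, which rose by a log2FC of 0.28, and whether counting used strand is not given in the sources used here. CDK6 (ENSG00000105810.9, chr7:92604921-92836594, minus strand) measured 194, 183, 139 and 194 CPM in OMO, where replicate 3 lay well under the others, and 103, 99.1, 95.3 and 86.5 CPM in OMO+DOX. It fell to 54.1% (log2FC −0.88 ± 0.0996, adjusted p = 6.76e-06), and the log2FC was −0.99 without OMO replicate 3. CDK2, the partner of cyclins E and A, moved less, from 46.0 ± 2.63 to 33.5 ± 0.788 CPM (SD, n = 4), or 72.7% (log2FC −0.46 ± 0.0502, adjusted p = 5.09e-06). The 3 kinases together were at 57.5% of their OMO level, and their shares hardly moved, with CDK4 at 73.2% in OMO+DOX.

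The E-type cyclins parted. CCNE2 (ENSG00000175305.17) read 29.4, 32.1, 24.1 and 29.5 CPM in OMO and 11.4, 12.8, 10.3 and 11.0 CPM in OMO+DOX, without overlap. It fell to 39.6% of OMO (log2FC −1.34 ± 0.0918, adjusted p = 8.45e-08), and its log2FC was −1.42 without OMO replicate 3, the lowest of its group. CCNE1 (ENSG00000105173.14, chr19:29811898-29824308, plus strand), which shares its function of activating CDK2, gave 12.1, 15.5, 14.6 and 13.4 CPM in OMO and 15.3, 14.4, 16.3 and 14.4 CPM in OMO+DOX. The groups overlapped and CCNE1 was not called (log2FC 0.12 ± 0.0798, adjusted p = 0.19), with a 95% interval of the log2FC from −0.055 to 0.30. Under library size alone it was called higher, with a log2FC of 0.25. The ratio of CCNE1 to CCNE2 in CPM went from 0.489 ± 0.0833 in OMO to 1.34 ± 0.187 in OMO+DOX (SD, n = 4), 2.74 times as high. This pair, like the other 4 given as ratios, was chosen after the values had been seen, so no test was made. Per kilobase CCNE1 went from 45.5% to 69.6% of the E-type level. CCNE2 shares 1629 exonic bases with INTS8 on the opposite strand, which rose by a log2FC of 0.38.

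All 4 tested cyclins of S phase and mitosis fell by over 2-fold. CCNA2 (ENSG00000145386.10, chr4:121816444-121823933, minus strand), cyclin A2 of S phase and G2, gave 67.4, 71.2, 69.6 and 69.1 CPM in OMO and 22.5, 21.5, 23.3 and 20.5 CPM in OMO+DOX. Untreated and treated libraries were far apart, and CCNA2 fell to 31.7% (log2FC −1.66 ± 0.0501, adjusted p = 7.28e-11). EXOSC9 on the opposite strand, with which it shares 254 exonic bases, fell by less, with a log2FC of −0.72. CCNB1 (ENSG00000134057.15, chr5:69167010-69178245, plus strand), the main cyclin of entry into mitosis, stood at 85.6, 95.8, 102 and 91.6 CPM and after DOX at 33.9, 30.8, 36.4 and 35.0 CPM. The groups lay far apart, with 36.2% of the level left (log2FC −1.46 ± 0.0676, adjusted p = 2.6e-09). CCNB2 (ENSG00000157456.8, chr15:59105078-59125045, plus strand), the second B-type cyclin, measured 52.5, 58.9, 61.5 and 55.6 CPM in OMO and 17.4, 15.0, 16.7 and 15.7 CPM in OMO+DOX. It kept the smallest part of its level among the cyclins tested, 28.3% (log2FC −1.82 ± 0.0649, adjusted p = 3.02e-10). CCNF (ENSG00000162063.13, chr16:2429394-2458854, plus strand), the substrate receptor of an SCF ubiquitin ligase rather than a CDK activator, read 57.8, 65.2, 68.5 and 62.6 CPM against 26.0, 22.8, 26.6 and 26.5 CPM. OMO+DOX replicate 2 was the lowest of its group, every treated library was below every untreated one, and CCNF fell to 40.1% (log2FC −1.32 ± 0.0668, adjusted p = 5.93e-09). CCNA1, the cyclin A of germ cells, was too low to be tested, with 24, 48, 39 and 25 counts in OMO and 4, 5, 11 and 3 in OMO+DOX, and the fit without the filter gave a log2FC of −2.51 ± 0.344 (adjusted p = 3.2e-07).

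The mitotic kinase and the phosphatases that release it fell as well. CDK1 (ENSG00000170312.16, chr10:60778331-60794852, plus strand), the kinase of mitosis, gave 78.2, 83.4, 84.1 and 81.8 CPM in OMO and 39.3, 34.8, 40.0 and 35.3 CPM in OMO+DOX. It was the only kinase among the 6 members of its kind to fall by over 2-fold, to 45.6% (log2FC −1.13 ± 0.0563, adjusted p = 5.02e-09). CDC25A (ENSG00000164045.12, chr3:48157146-48188402, minus strand), the phosphatase that acts on CDK2 in G1 and S phase and a known target of E2F and MYC, measured 32.5, 34.9, 35.9 and 35.0 CPM and after DOX 9.13, 9.27, 10.1 and 9.75 CPM. CDC25A kept 27.7% of its level (log2FC −1.85 ± 0.0544, adjusted p = 5.74e-11), and its 2 overlapping E2F matches are printed above. CDC25B (ENSG00000101224.17, chr20:3786772-3806121, plus strand), which starts the activation of CDK1 in G2, read 235, 237, 265 and 239 CPM in OMO and 94.9, 79.4, 91.4 and 91.0 CPM in OMO+DOX. It made 79.4% of the CDC25 level per kilobase in OMO and 83.5% in OMO+DOX, and fell to 36.6% (log2FC −1.45 ± 0.0639, adjusted p = 1.76e-09), with a log2FC of −1.41 without OMO replicate 3, the highest of its group. CDC25C (ENSG00000158402.20, chr5:138285265-138338355, minus strand), which completes the activation of CDK1, gave 19.0, 20.9, 23.3 and 20.1 CPM in OMO and 5.98, 5.44, 6.40 and 5.42 CPM in OMO+DOX. It fell to 27.9% (log2FC −1.84 ± 0.0811, adjusted p = 1.78e-09), and the 3 phosphatases together were at 34.8% of their OMO level per kilobase, lower than any other family summed here.

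**Figure D2:**
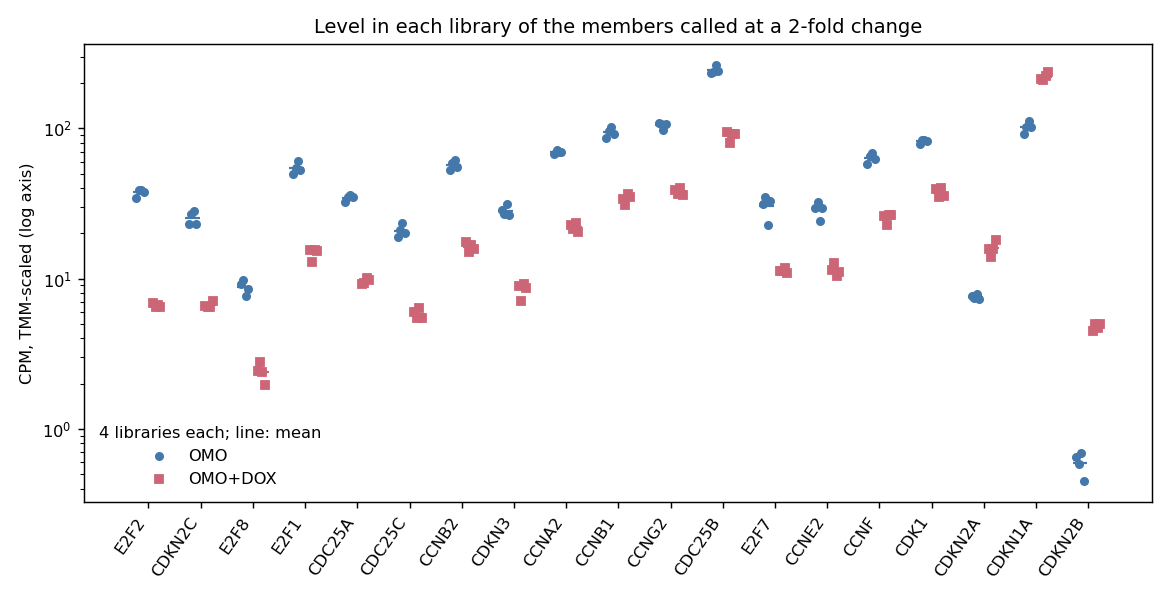
The level of the 19 members called at a 2-fold change is plotted in each of the 8 libraries as TMM-scaled CPM on a log axis, with a line at the mean of the 4 libraries of each group. In all 19 the OMO and OMO+DOX libraries are apart, with CDKN2A, CDKN1A and CDKN2B higher in OMO+DOX and the other 16 lower.

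The G-type cyclins, which do not drive the cycle, moved in opposite directions. CCNG2 (ENSG00000138764.15, chr4:77157151-77433388, plus strand), linked to arrest and quiescence and repressed by growth factor signalling, stood at 108, 107, 97.6 and 107 CPM in OMO and 39.1, 36.8, 40.1 and 36.2 CPM in OMO+DOX. It fell to 36.2% (log2FC −1.46 ± 0.053, adjusted p = 3.33e-10), by about as much as CCNB1, and the log2FC was −1.50 without OMO replicate 3. CCNG1, a target of p53, rose from 278 ± 3.27 to 386 ± 25.2 CPM (SD, n = 4), or 139% (log2FC 0.48 ± 0.0505, adjusted p = 4.14e-06). The ratio of CCNG1 to CCNG2 was 2.65 ± 0.149 in OMO and 10.2 ± 0.952 in OMO+DOX (SD, n = 4), 3.84 times as high. Among kinases outside the core cycle, CDK7, which activates other CDKs and phosphorylates RNA polymerase II, went from 15.5 ± 0.61 to 13.1 ± 0.799 CPM (log2FC −0.24 ± 0.0597, adjusted p = 0.00296), a call that was lost with library size alone at a log2FC of −0.12. CDK5, a kinase of neurons with its own activators, measured 5.32 ± 0.418 CPM in OMO and 5.72 ± 0.361 CPM in OMO+DOX and was not called (log2FC 0.10 ± 0.0848, adjusted p = 0.281). The 95% interval of its log2FC ran from −0.083 to 0.29, and with library size alone CDK5 was called at 0.23.

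Among the CIP/KIP inhibitors, CDKN1A and CDKN1B exchanged places. CDKN1A (ENSG00000124762.13, chr6:36676460-36687339, plus strand), p21, the inhibitor that p53 induces and that MYC with MIZ1 is known to repress, gave 92.2, 102, 112 and 103 CPM in OMO and 214, 209, 222 and 239 CPM in OMO+DOX. Every treated library was above every untreated one, and the level reached 216% of OMO (log2FC 1.11 ± 0.0647, adjusted p = 2.03e-08). CDKN1B (ENSG00000111276.11, chr12:12715058-12722371, plus strand), p27, the inhibitor of quiescent cells that SKP2 marks for destruction, stood at 184, 187, 189 and 182 CPM in OMO and 132, 132, 133 and 131 CPM in OMO+DOX. It fell to 70.9% (log2FC −0.50 ± 0.0382, adjusted p = 2.39e-07), with an SD of 0.562 CPM in OMO+DOX. CDKN1C, p57, was not tested and held 6 to 13 counts in OMO and 6 to 16 in OMO+DOX, with a log2FC of 0.41 ± 0.374 in the fit without the filter (adjusted p = 0.41). Per kilobase CDKN1A went from 33.6% to 60.6% of the CIP/KIP level and CDKN1B from 66.3% to 39.3%. The ratio of CDKN1A to CDKN1B was 0.55 ± 0.0386 in OMO and 1.68 ± 0.100 in OMO+DOX (SD, n = 4), and the summed level of the family was 119.7% of OMO. CDKN1A shares 146 exonic bases with the antisense DINOL, which stayed under 0.5 CPM in each library.

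The INK4 inhibitors split into a pair that rose and a pair that fell. CDKN2B (ENSG00000147883.12, chr9:22002903-22009363, minus strand), p15, which TGF-beta induces and MYC with MIZ1 is known to repress, read 0.651, 0.579, 0.69 and 0.447 CPM in OMO and 4.46, 4.95, 4.72 and 4.96 CPM in OMO+DOX. Its level was 8.07 times as high after DOX (log2FC 3.0 ± 0.128, adjusted p = 1.32e-09), the largest rise among the members tested. CDKN2B passed the filter only through its OMO+DOX libraries, so a difference was partly built into this call and rank. CDKN2A (ENSG00000147889.17, chr9:21967753-21995301, minus strand), which encodes p16 and ARF, lies 7601 bases from CDKN2B on the same strand and gave 7.65, 7.45, 7.85 and 7.33 CPM in OMO and 15.6, 14.0, 15.7 and 18.0 CPM in OMO+DOX. It rose to 209% (log2FC 1.07 ± 0.0781, adjusted p = 1.54e-07), and its log2FC was 0.998, under the line for a 2-fold change, without OMO+DOX replicate 4, the highest of its group. Counts per gene do not tell p16 from ARF, and 341 of its exonic bases are shared with CDKN2B-AS1, which rose by a log2FC of 0.72. CDKN2C (ENSG00000123080.12, chr1:50960745-50974633, plus strand), p18, a known target of E2F, measured 23.0, 26.9, 28.0 and 23.1 CPM in OMO and 6.61, 6.44, 6.44 and 7.09 CPM in OMO+DOX. The groups were far apart, and CDKN2C fell to 26.3% (log2FC −1.93 ± 0.0793, adjusted p = 9.93e-10). CDKN2D, p19, went from 7.39 ± 0.776 to 4.80 ± 0.585 CPM (SD, n = 4), or 65.0% (log2FC −0.62 ± 0.106, adjusted p = 0.000207).

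Summed per kilobase, the rise of CDKN2A and CDKN2B was smaller than the fall of CDKN2C and CDKN2D, a description with no test. CDKN2C made 52.8% of the INK4 level in OMO and 20.01% in OMO+DOX, while CDKN2A went from 12.2% to 36.4% and CDKN2B from 1.01% to 11.8%. CDKN2D kept 34.0% and 31.8%. The ratio of CDKN2B to CDKN2C was 0.0234 ± 0.0039 in OMO and 0.719 ± 0.0404 in OMO+DOX (SD, n = 4), 30.7 times as high, and the summed INK4 level was 69.6% of OMO.

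**Figure D3:**
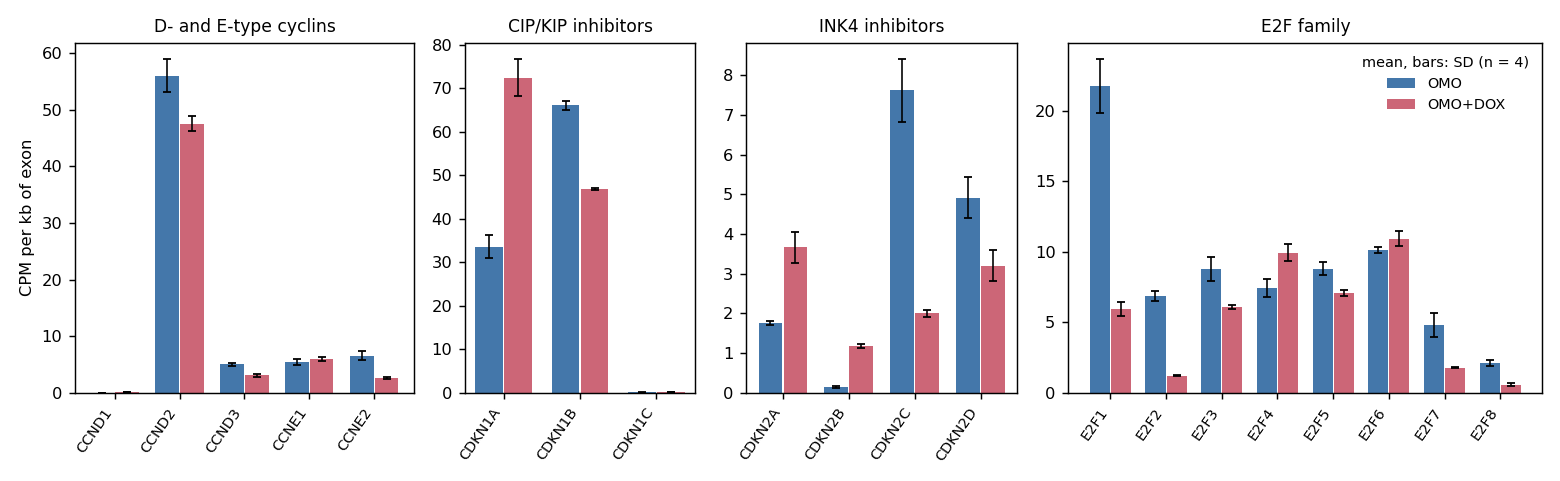
Mean CPM per kilobase of exon (bars, with SD over the 4 libraries of a group) is drawn for the D- and E-type cyclins, the CIP/KIP and INK4 inhibitors and the E2F family in OMO and OMO+DOX, with a separate axis from 0 in each panel. CCND2 exceeds CCND1 and CCND3 in both groups, CDKN1A passes CDKN1B in OMO+DOX, CDKN2C loses its lead among the INK4 inhibitors, and E2F1 falls from 21.7 to 5.93.

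CDKN3 and SKP2 act on CDKs from outside these families. CDKN3 (ENSG00000100526.20, chr14:54396849-54420218, plus strand), a phosphatase that acts on CDK2 and CDK1, gave 28.5, 27.0, 31.2 and 26.5 CPM in OMO and 8.95, 7.11, 9.19 and 8.59 CPM in OMO+DOX. It fell to 29.9% (log2FC −1.74 ± 0.0827, adjusted p = 3.42e-09), unlike the inhibitors CDKN1A, CDKN2A and CDKN2B, whose names it resembles. SKP2 (ENSG00000145604.16, chr5:36151989-36184319, plus strand), the F-box protein that targets p27, stood at 75.4, 83.4, 69.6 and 74.8 CPM in OMO and 70.6, 64.2, 62.1 and 61.4 CPM in OMO+DOX. The highest treated library was above the lowest untreated one, so the groups overlapped. SKP2 was called lower at 85.2% of OMO (log2FC −0.23 ± 0.0641, adjusted p = 0.00611), and with library size alone it was not called, at a log2FC of −0.11.

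The activator E2Fs fell with a median log2FC of −1.87 over the 3, led by E2F2. E2F2 (ENSG00000007968.7, chr1:23506430-23531220, minus strand) measured 34.6, 38.9, 38.7 and 37.8 CPM in OMO and 6.88, 6.41, 6.67 and 6.50 CPM in OMO+DOX. All treated libraries lay within a narrow band far below the untreated ones, and 17.6% of the level was left (log2FC −2.50 ± 0.0571, adjusted p = 7.47e-12). E2F1 (ENSG00000101412.13, chr20:33675683-33686404, minus strand), the activator with the highest level per kilobase in OMO though not in OMO+DOX, gave 49.6, 54.5, 60.9 and 52.6 CPM in OMO and 15.6, 13.0, 15.5 and 15.2 CPM in OMO+DOX. It fell to 27.3% (log2FC −1.87 ± 0.0771, adjusted p = 1e-09), with OMO+DOX replicate 2 under the other treated libraries. E2F3 moved less, from 45.4 ± 4.49 to 31.3 ± 0.745 CPM (SD, n = 4), or 68.9% (log2FC −0.54 ± 0.0672, adjusted p = 1.67e-05).

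The atypical E2Fs, E2F7 and E2F8, which repress without pocket proteins, fell too. E2F7 (ENSG00000165891.16, chr12:77021247-77065580, minus strand), an atypical repressor that is itself a target of E2F1, read 31.4, 35.0, 22.7 and 32.7 CPM in OMO and 11.2, 11.3, 11.7 and 11.0 CPM in OMO+DOX. OMO replicate 3 was far under the other untreated libraries yet above every treated one, and E2F7 fell to 37.1% (log2FC −1.43 ± 0.114, adjusted p = 3.38e-07), with a log2FC of −1.55 without that library. E2F8 (ENSG00000129173.13, chr11:19224063-19241620, minus strand), its close relative, was the lowest E2F per kilobase and gave 9.14, 9.83, 7.71 and 8.50 CPM in OMO and 2.42, 2.78, 2.38 and 1.95 CPM in OMO+DOX. It fell to 27.1% (log2FC −1.89 ± 0.115, adjusted p = 3.06e-08). The remaining E2Fs, E2F4, E2F5 and E2F6, moved little and not all in one direction. E2F4, the main partner of RBL1 and RBL2 in resting cells, rose from 26.7 ± 2.27 to 35.6 ± 2.07 CPM (log2FC 0.42 ± 0.0663, adjusted p = 0.000121), and E2F5, its relative, fell from 52.1 ± 2.79 to 42.0 ± 1.35 CPM (log2FC −0.31 ± 0.05, adjusted p = 0.000138). E2F6, a repressor found with polycomb proteins, stood at 41.2 ± 0.899 and 44.5 ± 2.14 CPM and missed the threshold (log2FC 0.11 ± 0.0469, adjusted p = 0.0512). It was called with library size alone, with the stricter filter (log2FC 0.12) and without OMO+DOX replicate 1 (log2FC 0.14).

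The make-up of the E2F family changed with these moves. Per kilobase E2F1 made 30.7% of the E2F level in OMO, the largest share, and 13.6% in OMO+DOX, while E2F2 went from 9.72% to 2.79%. E2F4 went from 10.5% to 22.8% and E2F6 from 14.3% to 25.1%, which made E2F6 the largest share in OMO+DOX. The ratio of E2F4 to E2F1 in CPM was 0.491 ± 0.0061 in OMO and 2.41 ± 0.0963 in OMO+DOX (SD, n = 4), 4.91 times as high. The summed level of the 8 E2Fs was 61.6% of OMO.

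The pocket proteins changed least among the families summed. RB1 (ENSG00000139687.15, chr13:48303726-48599436, plus strand), the retinoblastoma protein and the largest share of the 3 at 67.5% and 67.4% per kilobase, gave 114, 111, 93.1 and 113 CPM in OMO and 94.1, 96.5, 94.1 and 85.8 CPM in OMO+DOX. OMO replicate 3 lay inside the treated range, so the groups overlapped. RB1 was called lower at 85.7% of OMO (log2FC −0.22 ± 0.0688, adjusted p = 0.0114), with a log2FC of −0.29 without that library and no call with library size alone, at −0.098. RBL1, p107, which is known to be expressed in dividing cells, fell from 22.2 ± 1.79 to 15.1 ± 1.25 CPM (SD, n = 4), or 68.1% (log2FC −0.56 ± 0.0752, adjusted p = 3.27e-05), with a log2FC of −0.62 without OMO replicate 3. RBL2, p130, the pocket protein of resting cells, stood at 31.7 ± 2.24 CPM in OMO and 32.2 ± 2.17 CPM in OMO+DOX and was not called (log2FC 0.020 ± 0.0652, adjusted p = 0.789). The interval of its log2FC ran from −0.12 to 0.16. RBL2 shares 721 exonic bases with AC007342.6 and 610 with AKTIP, both on the opposite strand.

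Set in order by the part of the OMO level that was left, 8 members kept 30% or less (E2F2, CDKN2C, E2F8, E2F1, CDC25A, CDC25C, CCNB2 and CDKN3), 8 kept between 30% and 50%, 8 between 50% and 75% and 5 between 75% and 100%, and 9 lay above OMO. CCND3, CDK2, CDK4, CDK6, CDKN1B, CDKN2D, E2F3 and RBL1 formed the group between 50% and 75%. The counts of these groups have no share over all genes beside them. The first group mixes genes of G1 and S phase with genes of mitosis, and activators with inhibitors. OMO replicate 3 was the highest of its group in 21 of the 38 members and the lowest in 10, and OMO replicate 1 was the lowest in 18. Across genes, correlations of log2 CPM were 0.989 to 0.996 between OMO libraries, 0.994 to 0.997 between OMO+DOX libraries and 0.864 to 0.882 between the groups. Genes are not independent replicates, and the values are given as a description.

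Lists of other genes of the cell cycle were read from the same fit. Of 30 E2F target genes of S phase, the list with the most uniform change, 29 were called lower, 25 of them by over 2-fold, and the other 1 was not called, with a median log2FC of −1.59. RRM2, a subunit of ribonucleotide reductase, fell by 2.66 on the log2 scale, and CDT1, which licenses origins of replication, by 2.64. Of 14 genes of proliferation and quiescence 10 were lower and 2 higher, with a median of −1.07. AURKB, a kinase of chromosome segregation, fell to a log2FC of −2.59 and BIRC5, survivin, its partner, to −1.84. Of the 9 tested genes that modify CDKs 5 were lower and 4 higher (median −0.71), and the largest falls were in PKMYT1, a kinase that inhibits CDK1, with −2.28, and CHEK1, a checkpoint kinase, with −1.55. Among the 10 tested partners of E2F and subunits of DREAM and MuvB, 8 were lower and 1 was higher, with a median of −0.37. MYBL2 and FOXM1, the factors that activate mitotic genes together with MuvB, fell by 1.81 and 1.68 on the log2 scale.

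Other lists moved less or upward. Of the 19 ubiquitin ligase genes of the cycle 13 were lower and 2 higher (median −0.37). DTL, a receptor that directs the destruction of CDT1, had a log2FC of −1.90 and UBE2C, the conjugating enzyme of the anaphase-promoting complex, −1.59, while FBXW7, which marks cyclin E and MYC for destruction, rose by 1.01. In the p53 list 14 of 20 genes were higher and 5 lower, 7 of them higher by over 2-fold, with a median of 0.70. GADD45A, a stress-induced protein known to inhibit CDK1, rose from 23.3 ± 1.59 to 232 ± 4.45 CPM (log2FC 3.32) and SESN1, a sestrin, from 9.07 ± 0.606 to 36.1 ± 1.4 CPM (log2FC 1.99), each with SD over n = 4. The 35 tested cyclins and CDKs of transcription or of unknown partner gave 16 higher and 11 lower, with a median of 0.12, and CDK5R2, an activator of CDK5, was the only one past a 2-fold change, at −1.66. Of 6 tested genes of the MYC and MIZ1 list 4 were higher and 1 was lower, MYCL, at −1.15. Among the 4 was MYC, whose reads cannot be told apart from those of the transgene. In all 8 lists the counts stand beside 38.5% higher and 38.1% lower over all genes.

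**Figure D4:**
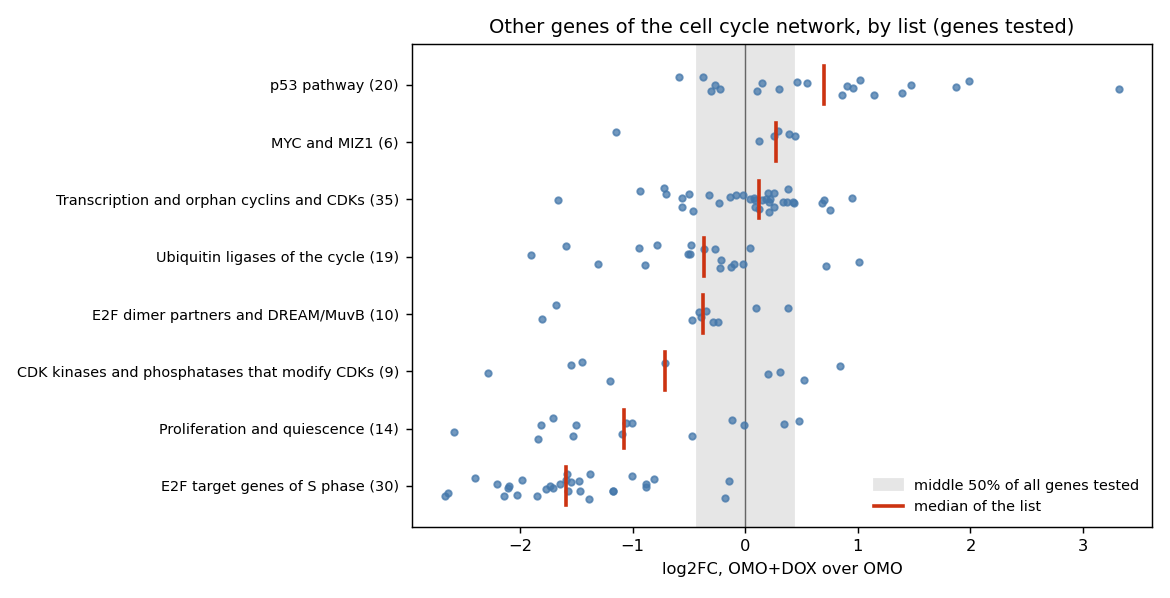
Each point is the log2FC of OMO+DOX over OMO of 1 tested gene in 8 lists of the cell cycle network, with the number of genes in parentheses, a red line at each list's median and a grey band for the middle 50% of all genes tested. The E2F target genes of S phase lie farthest to the left, with a median of −1.59, and the p53 pathway farthest to the right, with 0.70.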

How the data were processed

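RNA-Seq libraries of polyA+ RNA were made with a stranded kit from 4 OMO and 4 OMO+DOX cultures of D283-OMO cells. Trim Galore, STAR (GRCh38 and GENCODE release 32) and RSEM were the authors' steps for trimming, alignment and quantification. The authors deposited 1 file of expected counts for each library, not normalized, in which RSEM has split reads with several possible genes. Whether counting used strand is not given in the sources used here. Opposite-strand genes also share exonic bases with E2F5 (969 with C8orf59), CCNF (527 with AC106820.6 and 219 with AC106820.5), CDK2, CDK5, CDK6, CCND3, E2F8 and RBL1. CDC25C shares 293 with FAM53C, which rose by a log2FC of 0.37. The part of such shared bases in the results was not tested.

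Groups were taken from the sample titles. Expected counts were rounded to whole numbers, and a gene was tested when at least 4 of the 8 libraries exceeded 1 CPM, with edgeR 4.0.16 in R 4.3.3 (TMM, quasi-likelihood F test, no covariates, Benjamini-Hochberg adjustment over the 15222 genes tested). Standard errors were taken as the size of the log2FC divided by the root of its F statistic, and intervals are 95%. CPM use TMM-scaled library sizes, and CPM per kilobase divide them by the exonic length of GENCODE 29 on GRCh38, which also gave symbols and coordinates and holds 58561 of the 60668 identifiers. Depth ran from 38390696 to 54020506 counts per library. Limits of 3 counts allow for counting error alone, as no molecular identifiers mark single molecules. The biological coefficient of variation was 0.0745.

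The members, gene lists, motifs and tests were chosen with earlier results of these data known. All 41 members are named, and 1 list of cell type markers is not reported here. Values per library are given for members called at a 2-fold change and for CCND1, CCND2, CCND3, CCNE1, CDK4, CDK6, CDKN1A, CDKN1B, CDKN2A, E2F1, RB1 and SKP2, and from each other list at most the 2 largest rises and 2 largest falls among genes called at a 2-fold change. The stricter thresholds are those of the study's methods, and its results text gives a looser cut on the adjusted p. Ratios of members were picked with their values in view and not tested. On simulated counts with the means and dispersion of these libraries, 200 genes were changed, as many up as down, and the rest were left unchanged. Of the changed genes, 99 of 100 changed by a log2FC of 1 and 98 of 100 changed by 2 were recovered, with 14 false calls among 15222 genes. In these data 5868 genes were called higher and 5793 lower. The simulation therefore does not show how calls or scaling fare under so wide a change. DESeq2 1.42.0, other scalings, filters and tests, the replicate number as a block, and each library left out in turn were tried as alternatives. Python 3.11.15 with pandas 2.3.3 and numpy 2.4.6 was used for the rest.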

Additional observations from a re-analysis of the deposited data

Results flagged for a closer look

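In 82 groups of 4 libraries (41 members in each condition), 6 had 1 library far from the other 3 by Dixon's test at the 95% level, where chance marks about 1 group in 20, or 4.1 of 82. OMO replicate 3 was the library in 4 of them. CCNG2 was at 97.61 CPM there against 107.2 to 107.8 CPM in the other OMO libraries, RB1 at 93.06 CPM against 111.5 to 114.4 CPM, RBL1 at 19.55 CPM against 22.78 to 23.41 CPM, and CDC25B, in the other direction, at 264.5 CPM against 234.8 to 238.9 CPM. OMO+DOX replicate 2 was the library in the other 2, with CCNF at 22.77 CPM against 26.04 to 26.58 CPM and E2F1 at 12.98 CPM against 15.24 to 15.6 CPM. Without OMO replicate 3 the log2FC was −1.50 for CCNG2, −0.29 for RB1, −0.62 for RBL1 and −1.41 for CDC25B, and all 4 kept their calls.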

How the results depend on the processing

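No called member changed direction under an alternative that was run, and the log2FC of RBL2, not called, ran from −0.033 to 0.15. All 38 members tested kept their call, or lack of one, with DESeq2's size factors, DESeq2's Wald test, edgeR's likelihood ratio test and no filter on low counts. With library size alone 32 did, 3 lost their call and 3 gained one, so that 8 members were called higher in place of 5, and the list of E2F partners and DREAM subunits had 2 genes higher in place of 1. The cause of the difference in scale was not tested. The stricter filter (over 4 libraries above 1 CPM) is the one in the paper's methods, while its results text gives at least 4. Under the stricter filter E2F6 became called (log2FC 0.12) and CDKN2B was not tested. That left 0 members higher at an adjusted p below 0.001 and an absolute log2FC above 2 in place of 1. Without a filter, where more low genes enter, 2 members were higher and 2 lower at these thresholds. Over all genes these thresholds gave 313 higher and 249 lower with the stricter filter, 1328 and 769 without a filter, and 666 and 418 as reported. A 2-fold change was called in 3668 genes higher and 2776 lower without a filter, in place of 1682 and 1493.

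With each library left out in turn, 5 to 6 members were called higher and 29 lower, and 2 to 3 were higher and 16 lower at a 2-fold change. E2F6 gained its call without OMO+DOX replicate 1, and CDKN2A fell just under a 2-fold change without OMO+DOX replicate 4. Over all genes the calls ranged from 5575 to 6036 higher and from 5549 to 6004 lower, from 1641 to 1702 and from 1481 to 1518 at a 2-fold change, and from 659 to 670 and from 410 to 425 at the stricter thresholds.

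Replicate numbers showed no consistent pairing of the libraries, and whether same-numbered cultures were handled together is not given in the sources used here. Deviations of same-numbered libraries from their group means correlated at 0.157, 0.144, 0.241 and −0.176. OMO replicates 1, 3 and 4 correlated better with another number than with their own. The biological coefficient of variation was 0.0745 without and 0.0666 with the replicate number as a block. With the replicate number as a block, 5 members were called higher and 29 lower, with 5962 and 5843 of all genes, and no member changed its call. At these depths members with few counts (CCNA1, CCND1 and CDKN1C) have the widest errors, and the files hold RNA levels only, so the activity of CDKs and the phosphorylation of RB1 are not measured.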
